A study of Mus musculus with 76 samples.

Results

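The 10 genes Bax, Bbc3, Pmaip1, Apaf1, Fas, Tnfrsf10b, Eda2r, Perp, Trp53inp1 and Aen, through which the transcription factor p53 promotes cell death, were followed in fetal livers of DIS3 and EXOSC10 knockout embryos. They were chosen by name as known p53 targets, with earlier results of these data known. All 10 were found among the 49585 genes in the files. RNA was sequenced from livers of C57BL/6NJ mouse embryos at embryonic day 14.5 to ask which transcripts depend on DIS3 and EXOSC10, ribonucleases of the RNA exosome, while red cells mature. Knockout (KO) and wild-type (WT) embryos of a DIS3 line and of an EXOSC10 line were compared, in total liver and in populations S0, S1, S2, S3 and S4+S5 sorted on the surface proteins CD71 and Ter119. Later S numbers hold more mature erythroid cells. The labels give the genotypes as KO and WT and name neither the deleted allele nor what drove the deletion. They do not say whether replicates are separate animals, so the p-values measure the spread between these samples, which may be technical.

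Sequencing depth ranged between 4.66 M and 30.4 M counts over the 76 libraries, with a median of 12.7 M. Libraries of a group whose counts differed by little more than sampling noise (a chi-square per degree of freedom of 1.08 to 1.33, against 2.80 to 20.3 between the others) were added up as a single sample, giving 52 samples: 2 per genotype in every sorted population, 2 KO and 4 WT in DIS3 total liver, and 3 KO and 3 WT in EXOSC10 total liver. Levels are CPM, counts scaled to the size of the library, each fold change is KO over WT on the log2 scale with its standard error, and a gene was called at an adjusted p under 0.05 in edgeR's quasi-likelihood test over all genes tested. Dis3 RNA was lower in DIS3 KO samples of S0 to S3, with log2 fold changes of -0.95 to -0.31, and was not called in total liver (31.7 to 32.4 CPM in KO, 29.8 to 49.9 CPM in WT) or S4+S5. Exosc10 RNA was lower in all 6 EXOSC10 comparisons, by log2 fold changes of -1.90 to -0.44. The summed level of the 16 erythroid markers in DIS3 WT samples was 399 to 406 CPM in S0 and 59026 to 64093 CPM in S4+S5, in the order of the labels. All DIS3 KO samples lacked Y-linked counts (under 10 CPM over 4 genes), while DIS3 WT samples held them in every sorted pool and in 3 of the 4 total livers; in that line's sorted populations sex and genotype cannot be told apart. No EXOSC10 sample held Y-linked counts. The predicted genes Gm26917 and Gm42418 took 61.4% of the counts in 1 library, DIS3 KO S2 replicate 2, and without it all 10 genes were still called higher in that comparison.

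p53 is a sequence-specific transcription factor that is stabilised when cells meet DNA damage, faulty ribosome assembly or other stress. Its death genes act along separate routes: proteins of the BCL2 family open the outer membrane of the mitochondrion, APAF1 then assembles the apoptosome that starts the caspases, and death receptors start caspases from the cell surface. In the fetal liver, red cell precursors are known to be sensitive to p53, since mouse embryos that lack its inhibitors lose erythroid cells.

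All but Pmaip1 are placed here, at these positions of GRCm38 in the GENCODE M21 annotation, all protein coding: Bax at chr7:45461697-45466898 on the minus strand, Bbc3 at chr7:16308393-16318205 on the plus strand, Aen at chr7:78895854-78911209 on the plus strand, Apaf1 at chr10:90989311-91082770 on the minus strand, Perp at chr10:18845020-18857073 on the plus strand, Fas at chr19:34290666-34327772 on the plus strand, Tnfrsf10b at chr14:69767472-69784411 on the plus strand, Trp53inp1 at chr4:11156431-11174379 on the plus strand and Eda2r at chrX:97333840-97377216 on the minus strand. Promoter windows of 300 bases (250 before and 50 after a transcript start, RefSeq, GRCm38.p6) were at hand for 6 genes, Bax, Bbc3, Apaf1, Fas, Eda2r and Aen, in 9 windows. The p53 consensus decamer was searched in them on both strands; a full p53 site is a pair of such decamers at most 13 bases apart. Bax and Aen held 1 decamer each and no window held a pair, against 9.55% of the 27025 genes in the table with a decamer and 0.074% with a pair. A window of Bax and of Aen is shown because it held a decamer. Bax, Aen and Eda2r all rose in every comparison below, and the Eda2r window held no decamer. The capitals mark the decamer, which starts 201 bases before the Bax start and at base 10 after 1 Aen start. Another Aen window, not shown, holds the same decamer 121 bases before its start. A match describes the letters only.
Bax promoter, chr7:45466849-45467148, minus strand: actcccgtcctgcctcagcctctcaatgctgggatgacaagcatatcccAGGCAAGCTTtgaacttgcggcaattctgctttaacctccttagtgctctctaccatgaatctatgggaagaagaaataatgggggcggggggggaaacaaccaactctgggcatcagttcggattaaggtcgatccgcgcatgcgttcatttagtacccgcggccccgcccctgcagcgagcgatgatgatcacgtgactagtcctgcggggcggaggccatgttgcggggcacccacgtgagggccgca
Aen promoter, chr7:78895677-78895976, plus strand: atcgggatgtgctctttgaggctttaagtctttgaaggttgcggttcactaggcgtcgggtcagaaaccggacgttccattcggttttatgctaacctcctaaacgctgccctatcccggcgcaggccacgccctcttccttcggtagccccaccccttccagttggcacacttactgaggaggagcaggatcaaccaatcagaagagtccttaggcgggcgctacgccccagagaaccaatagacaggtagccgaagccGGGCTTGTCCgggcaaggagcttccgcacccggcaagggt

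The death genes were higher in KO than in WT samples in nearly every population of both lines. Of 120 comparisons of 1 gene in 1 population and line, 117 could be tested, 104 were called higher and 1 was called lower. In DIS3 KO samples, 7 of the 10 genes were called higher in total liver (26.5% of all genes tested), 9 in S0 (18% of all genes), 10 in S1 (20.6%), 10 in S2 (10.3%), 7 in S3 (16.3%) and 8 in S4+S5 (23.4%). In EXOSC10 KO samples, 9 were called higher in total liver (31.4% of all genes), 10 in S0 (8.84%), 10 in S1 (15.2%), 10 in S2 (11.6%), 8 in S3 (16.8%) and 6 in S4+S5 (7.63%). The gene called lower was Bbc3 in DIS3 total liver, where 24.2% of all genes were lower; no member was lower elsewhere, against 13%, 19.4%, 4.8%, 15.9% and 23.7% of all genes in DIS3 S0, S1, S2, S3 and S4+S5, and 31%, 4.63%, 15.5%, 9.86%, 17.2% and 7.52% in EXOSC10 total liver, S0, S1, S2, S3 and S4+S5. Fas in S3 of both lines and Perp in DIS3 S3 had too few counts for the test. In 25 of the 117 tests the gene passed the count filter through its KO samples alone, since too few WT samples reached the minimum: 10 for Eda2r, 8 for Fas, 5 for Tnfrsf10b and 1 each for Perp and Pmaip1. Entry of that kind favours genes that differ, so the 23 calls among them are descriptions of those samples. In the other 92 tests 81 were called higher. Groups are also described below as separate or overlapping. The share of all genes whose groups separated was not counted. With 2 samples per genotype in the sorted populations, groups can separate without a difference, so separation only describes these samples.

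Fold changes were smaller in total liver than in most sorted populations. The median log2 fold change of the tested members was 0.77 in DIS3 total liver and 0.85 in EXOSC10 total liver, with that of all genes at 0.03 and 0.00. In the sorted populations the members' median lay between 1.32 (S3) and 2.43 (S2) in the DIS3 line, and between 1.34 (S3) and 2.55 (S0) in the EXOSC10 line. These medians cover only members that passed the count filter and describe the samples. Total liver and sorted samples also differ in cell makeup. The 12 hepatocyte markers summed to 120322 to 124915 CPM in DIS3 KO total liver, against 54044 to 61020 CPM in WT, and to 64536 to 87079 CPM in EXOSC10 KO total liver, against 36538 to 46195 CPM in WT. The 16 erythroid markers summed to 9346 to 12256 CPM in DIS3 KO, against 20062 to 23354 CPM in WT, and to 6042 to 8175 CPM in EXOSC10 KO, against 15555 to 16520 CPM in WT. The part of this shift in the total liver values was not tested, and in bulk samples fewer cells of a type and less RNA per cell cannot be told apart.

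**Figure D1:**
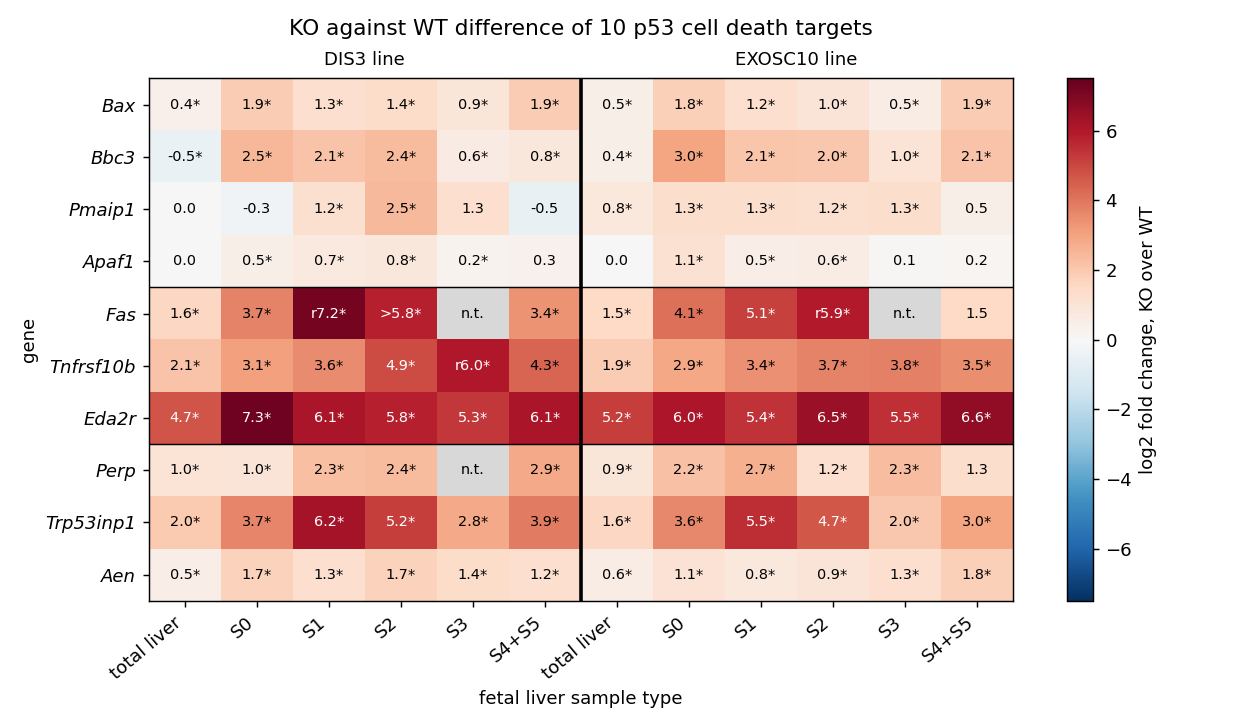
Log2 fold change, KO over WT, of each of the 10 genes (rows, grouped by role) in each line and population (columns). An asterisk marks an adjusted p under 0.05; the signs > and r mark a lower bound and a ratio of counts where WT samples held 3 counts or fewer, and n.t. marks a gene that was not tested. Eda2r has values of 4.73 to 7.27, and Bbc3 in DIS3 total liver is the lone called decrease at -0.50.

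Bax, the pore-forming protein of the mitochondrial outer membrane, was higher in KO samples of all 12 comparisons. In S0 it had 106 and 99.7 CPM in DIS3 KO samples, against 29.5 and 26.7 CPM in DIS3 WT samples (log2 fold change 1.88 ± 0.11, adjusted p = 5.21e-07). In EXOSC10 S0 it had 98.3 and 86.2 CPM in KO samples, against 28.3 and 25.5 CPM in WT samples (log2 fold change 1.78 ± 0.12, adjusted p = 9.41e-05). KO and WT values were thus separate in the earliest population, and the rise was of similar size in S4+S5. There Bax had 105 and 101 CPM in DIS3 KO samples, against 22.1 and 34.2 CPM in DIS3 WT samples (log2 fold change 1.89 ± 0.19, adjusted p = 1.26e-07). The EXOSC10 line had 61.3 and 60.4 CPM in KO samples, against 16.1 and 17 CPM in WT samples (log2 fold change 1.88 ± 0.12, adjusted p = 0.00102). No KO sample overlapped a WT sample in any comparison. The changes of S1, S2 and S3 lay between 0.55 and 1.40. The smallest were in total liver, at 0.38 ± 0.11 in DIS3 and 0.46 ± 0.06 in EXOSC10. The DIS3 total liver call was lost without KO replicates 2-4 (0.23, adjusted p = 0.147) and against the WT liver without Y-linked counts alone (0.40, adjusted p = 0.158). Bax shares 192 exon bases with Gm45808, to which no read was assigned.

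Bbc3 encodes PUMA, a BH3-only protein that frees BAX from its inhibitors. It rose most in S0, where it had 27.7 and 31.7 CPM in DIS3 KO samples, against 5.65 and 4.80 CPM in DIS3 WT samples (log2 fold change 2.5 ± 0.18, adjusted p = 2.67e-06). EXOSC10 S0 gave 45.9 and 37.9 CPM in KO samples, against 7.10 and 4.13 CPM in WT samples (log2 fold change 2.99 ± 0.24, adjusted p = 0.000221). Both KO samples stood above both WT samples in each line, as they did in the other sorted populations. In S1 and S2 the log2 fold changes lay between 2.04 and 2.35. In S3 Bbc3 had 21.5 and 18.4 CPM in DIS3 KO samples, against 15.0 and 10.8 CPM in DIS3 WT samples (log2 fold change 0.63 ± 0.15, adjusted p = 0.00672), a call that was lost without KO replicates 1-3 (0.49, adjusted p = 0.0884). EXOSC10 S3 gave 1.04 ± 0.18, which fell to 0.66 without WT replicates 2-3. S4+S5 held the highest levels of Bbc3. It had 92.9 and 107 CPM in DIS3 KO samples, against 50.2 and 62.2 CPM in DIS3 WT samples there (log2 fold change 0.84 ± 0.16, adjusted p = 0.000281), and 70.9 and 69.3 CPM in EXOSC10 KO samples, against 19.6 and 12.1 CPM in EXOSC10 WT samples (log2 fold change 2.15 ± 0.23, adjusted p = 0.00473).

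In total liver the Bbc3 values of the lines went opposite ways. DIS3 livers had 10.6 and 13.4 CPM in KO samples, against 18.6, 17.3, 14.7 and 17.6 CPM in WT samples (log2 fold change -0.50 ± 0.14, adjusted p = 0.00923), so both KO samples lay under every WT sample. EXOSC10 livers had 10.9, 11.2 and 10.3 CPM in KO samples, against 8.27, 7.39 and 8.11 CPM in WT samples (log2 fold change 0.45 ± 0.10, adjusted p = 0.00153), so every KO sample lay above every WT sample. The DIS3 decrease was lost without KO replicates 1-3 (-0.35, adjusted p = 0.108), against the WT liver without Y-linked counts alone (-0.30, adjusted p = 0.347) and in a fit of all samples of the line (-0.34, adjusted p = 0.0751). The EXOSC10 increase missed the threshold in such a fit (0.58, adjusted p = 0.0502).

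Pmaip1 encodes NOXA, a BH3-only protein that neutralises MCL1. Its calls were fewer, 7 of 12, and it was called in every EXOSC10 population but S4+S5. In S2 it had 5.5 and 6.39 CPM in DIS3 KO samples, against 0.998 and 1.18 CPM in DIS3 WT samples (log2 fold change 2.45 ± 0.30, adjusted p = 0.00126). EXOSC10 S2 gave 6.02 and 9.09 CPM in KO samples, against 3.45 and 3.28 CPM in WT samples (log2 fold change 1.18 ± 0.27, adjusted p = 0.0167). S1 gave 1.19 ± 0.28 in the DIS3 line, where the WT samples differed (3.96 and 1.70 CPM) and the value without WT replicates 1-3 was 2.11, and 1.30 ± 0.25 in the EXOSC10 line. The lines looked unlike in S0. DIS3 S0 had 20.5 and 12.5 CPM in KO samples, against 22.7 and 18.1 CPM in WT samples (log2 fold change -0.27 ± 0.22, adjusted p = 0.39), with overlapping groups. EXOSC10 S0 had 31.5 and 30.0 CPM in KO samples, against 18 and 7.73 CPM in WT samples (log2 fold change 1.34 ± 0.32, adjusted p = 0.029). Without DIS3 KO replicates 1-3 the DIS3 value was -0.75 and was called (adjusted p = 0.00601), and without EXOSC10 WT replicates 2-3 the EXOSC10 call was lost (0.77, adjusted p = 0.0698).

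In DIS3 total liver Pmaip1 was not called and its groups overlapped (2.66 and 2.31 CPM in KO, 3.10, 2.30, 1.98 and 3.07 CPM in WT, log2 fold change -0.04 ± 0.23, adjusted p = 0.9). EXOSC10 livers had 6.64, 6.44 and 7.03 CPM in KO samples, against 3.56, 4.35 and 3.63 CPM in WT samples (log2 fold change 0.81 ± 0.13, adjusted p = 0.000195). S3 gave 1.26 ± 0.46 in DIS3 (adjusted p = 0.0551) and 1.34 ± 0.35 in EXOSC10 (adjusted p = 0.00985). The EXOSC10 S3 call was lost without WT replicates 2-3 (0.98, adjusted p = 0.177) and with DESeq2 (adjusted p = 0.0851). S4+S5 was not called in either line, at -0.53 ± 0.35 in DIS3 and 0.46 ± 0.26 in EXOSC10. Without DIS3 WT replicate 2 the DIS3 value was -0.95, and without DIS3 WT replicates 1-3 it was 0.073. Without EXOSC10 KO replicate 1 the EXOSC10 value was 0.61. Both values thus moved with single samples, and neither was called with all samples.

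Apaf1, the scaffold of the apoptosome, had log2 fold changes of 0.00 to 1.13. It was not called in total liver, with 61.7 and 56.6 CPM in DIS3 KO samples, against 62.4, 58.4, 57.1 and 58.4 CPM in DIS3 WT samples (log2 fold change 0.00 ± 0.09, adjusted p = 0.997) and 0.02 ± 0.06 in EXOSC10. In S0 it had 154 and 146 CPM in DIS3 KO samples, against 113 and 105 CPM in DIS3 WT samples (log2 fold change 0.47 ± 0.09, adjusted p = 0.00324). EXOSC10 S0 had 164 and 155 CPM in KO samples, against 77.0 and 69.3 CPM in WT samples (log2 fold change 1.13 ± 0.11, adjusted p = 0.000509), the highest of its values. S1 gave 0.74 ± 0.06 in DIS3 and 0.50 ± 0.09 in EXOSC10, and S2 gave 0.84 ± 0.12 and 0.59 ± 0.07; these 4 were called and their groups did not overlap. The DIS3 S2 call was lost without WT replicates 1-3 (adjusted p = 0.0691). In S3 the change was 0.25 ± 0.08 in DIS3, called at an adjusted p of 0.0266 but not with DESeq2 (0.198) or without KO replicates 1-3 (0.149) or WT replicate 2 (0.142), and 0.12 ± 0.07 in EXOSC10, not called. S4+S5 was not called, at 0.30 ± 0.17 in DIS3 and 0.15 ± 0.11 in EXOSC10. The DIS3 value was 0.51 and was called without WT replicates 1-3 (adjusted p = 0.00388).

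Eda2r, a receptor of the TNF receptor family that binds the A2 form of ectodysplasin, had the largest fitted change of the tested members in 8 of the 12 comparisons, all but DIS3 S1, S2 and S3 and EXOSC10 S1. WT samples held under 2 CPM in every group, and in 10 comparisons, all but DIS3 total liver and EXOSC10 S0, the gene passed the count filter through its KO samples alone, so its p-values there are no independent support. In S0 it had 67.5 and 54.8 CPM in DIS3 KO samples, against 0.536 and 0.226 CPM in DIS3 WT samples (log2 fold change 7.27 ± 0.26, adjusted p = 2.85e-08). EXOSC10 S0 had 54.5 and 41.4 CPM in KO samples, against 0.801 and 0.681 CPM in WT samples (log2 fold change 6.05 ± 0.25, adjusted p = 9.78e-06). The KO samples thus carried 41.4 CPM or more of a transcript near the limit of detection in WT samples. In S4+S5 it had 72.1 and 72.2 CPM in DIS3 KO samples, against 0.725 and 1.5 CPM in DIS3 WT samples (log2 fold change 6.12 ± 0.28, adjusted p = 2.69e-12). EXOSC10 S4+S5 had 21.3 and 29.0 CPM in KO samples, against 0.195 and 0.291 CPM in WT samples (log2 fold change 6.65 ± 0.35, adjusted p = 0.000627). In total liver the values were 11.8 and 10.8 CPM in DIS3 KO samples, against 0.453, 0.492, 0.395 and 0.219 CPM in DIS3 WT samples (log2 fold change 4.73 ± 0.21, adjusted p = 8.76e-10). EXOSC10 livers had 10.8, 13.9 and 14.3 CPM in KO samples, against 0.105, 0.253 and 0.515 CPM in WT samples (log2 fold change 5.16 ± 0.26, adjusted p = 4.18e-08). No groups overlapped in any of the 12 comparisons. Changes in S1, S2 and S3 lay between 5.29 and 6.48. The gene is X-linked. In the EXOSC10 line, where no sample held Y-linked counts, its changes lay between 5.16 and 6.65.

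Tnfrsf10b encodes the mouse receptor for the death ligand TRAIL, and was called higher in all 12 comparisons with no overlap. In DIS3 S2 and in S3 and S4+S5 of both lines it passed the count filter through its KO samples alone, and the calls there are no independent support. In S0 it had 27.3 and 20.7 CPM in DIS3 KO samples, against 3.31 and 2.26 CPM in DIS3 WT samples (log2 fold change 3.10 ± 0.24, adjusted p = 4.40e-06). EXOSC10 S0 had 26.5 and 25.1 CPM in KO samples, against 2.86 and 3.81 CPM in WT samples (log2 fold change 2.90 ± 0.21, adjusted p = 0.000108). In the DIS3 line the effect in S2 exceeded that in S0 by 1.66 ± 0.43, with WT levels lower in S2, while the EXOSC10 effects were not called different between populations (adjusted p = 0.558). In S2 it had 14.9 and 10.6 CPM in DIS3 KO samples, against 0.499 and 0.311 CPM in DIS3 WT samples (log2 fold change 4.88 ± 0.33, adjusted p = 7.41e-05), and EXOSC10 S2 gave 3.72 ± 0.38. DIS3 S3 held 164 counts over the KO samples against 3 over the WT samples, a ratio of 64.7 in CPM with an exact 95% interval of 21.8 to 317 that covers counting error only. EXOSC10 S3 had 3.79 and 4.35 CPM in KO samples, against 0.342 and 0.275 CPM in WT samples (log2 fold change 3.76 ± 0.39, adjusted p = 1.08e-05). S1 and S4+S5 gave values between 3.44 and 4.35, and total liver gave 2.13 ± 0.22 in DIS3 and 1.89 ± 0.13 in EXOSC10.

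Fas, the receptor for Fas ligand, was at 0 in 13 of the 76 libraries and rose on a base of a few counts. In total liver, where WT samples expressed it, Fas had 6.62 and 6.35 CPM in DIS3 KO samples, against 2.09, 2.46, 2.1 and 2.41 CPM in DIS3 WT samples (log2 fold change 1.55 ± 0.17, adjusted p = 3.47e-06). EXOSC10 livers had 2.83, 4.18 and 4.95 CPM in KO samples, against 1.62, 1.62 and 1.12 CPM in WT samples (log2 fold change 1.49 ± 0.24, adjusted p = 0.000166). Every KO liver stood above every WT liver in each line. In sorted cells the counts were close to absent in WT. In the 8 sorted comparisons tested Fas passed the count filter through its KO samples alone, so its p-values there are no independent support. DIS3 S1 held 153 Fas counts over the KO samples and 1 over the WT samples, a ratio of 148 in CPM (exact 95% interval 26.1 to 5869), and the edgeR test gave an adjusted p of 9.51e-06. DIS3 S2 held 134 counts in KO and 0 in WT, at least 56.8-fold higher against a floor of 3 counts over the WT group (adjusted p = 0.00067). EXOSC10 S2 held 64 in KO and 2 in WT, a ratio of 60.9 (16.2 to 514; adjusted p = 0.00199).

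In S0 Fas had 3.81 and 3.96 CPM in DIS3 KO samples, against 0.389 and 0.170 CPM in DIS3 WT samples (log2 fold change 3.74 ± 0.54, adjusted p = 0.000416). EXOSC10 S0 had 6.25 and 1.08 CPM in KO samples, against 0 and 0.280 CPM in WT samples (log2 fold change 4.13 ± 1.05, adjusted p = 0.0359). The EXOSC10 KO replicates were far apart, and without replicate 1 the value was 2.39. Without WT replicates 2-3 the remaining WT sample held 0 Fas counts, and no fold is given. The 12 hepatocyte markers summed to 73.5 CPM in KO replicate 1 and to 1090.4 CPM in the other KO sample, replicates 2-3. They summed to 28.8 and 39.1 CPM in WT. The part of cell makeup in the Fas values was not tested. In S3 Fas could not be tested: DIS3 KO samples held 27 counts and EXOSC10 KO samples 21, against 0 in the WT samples of each line, at least 10.7-fold and 8.53-fold higher. S4+S5 gave 2.30 and 2.62 CPM in DIS3 KO samples, against 0.290 and 0.125 CPM in DIS3 WT samples (log2 fold change 3.38 ± 0.74, adjusted p = 0.000931). EXOSC10 S4+S5 gave 0.780 and 1.21 CPM in KO samples, against 0.292 and 0.416 CPM in WT samples (log2 fold change 1.5 ± 0.87, adjusted p = 0.313), with both KO samples above both WT samples and no call; without KO replicate 1 it was 1.72 (adjusted p = 0.0209).

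**Figure D2:**
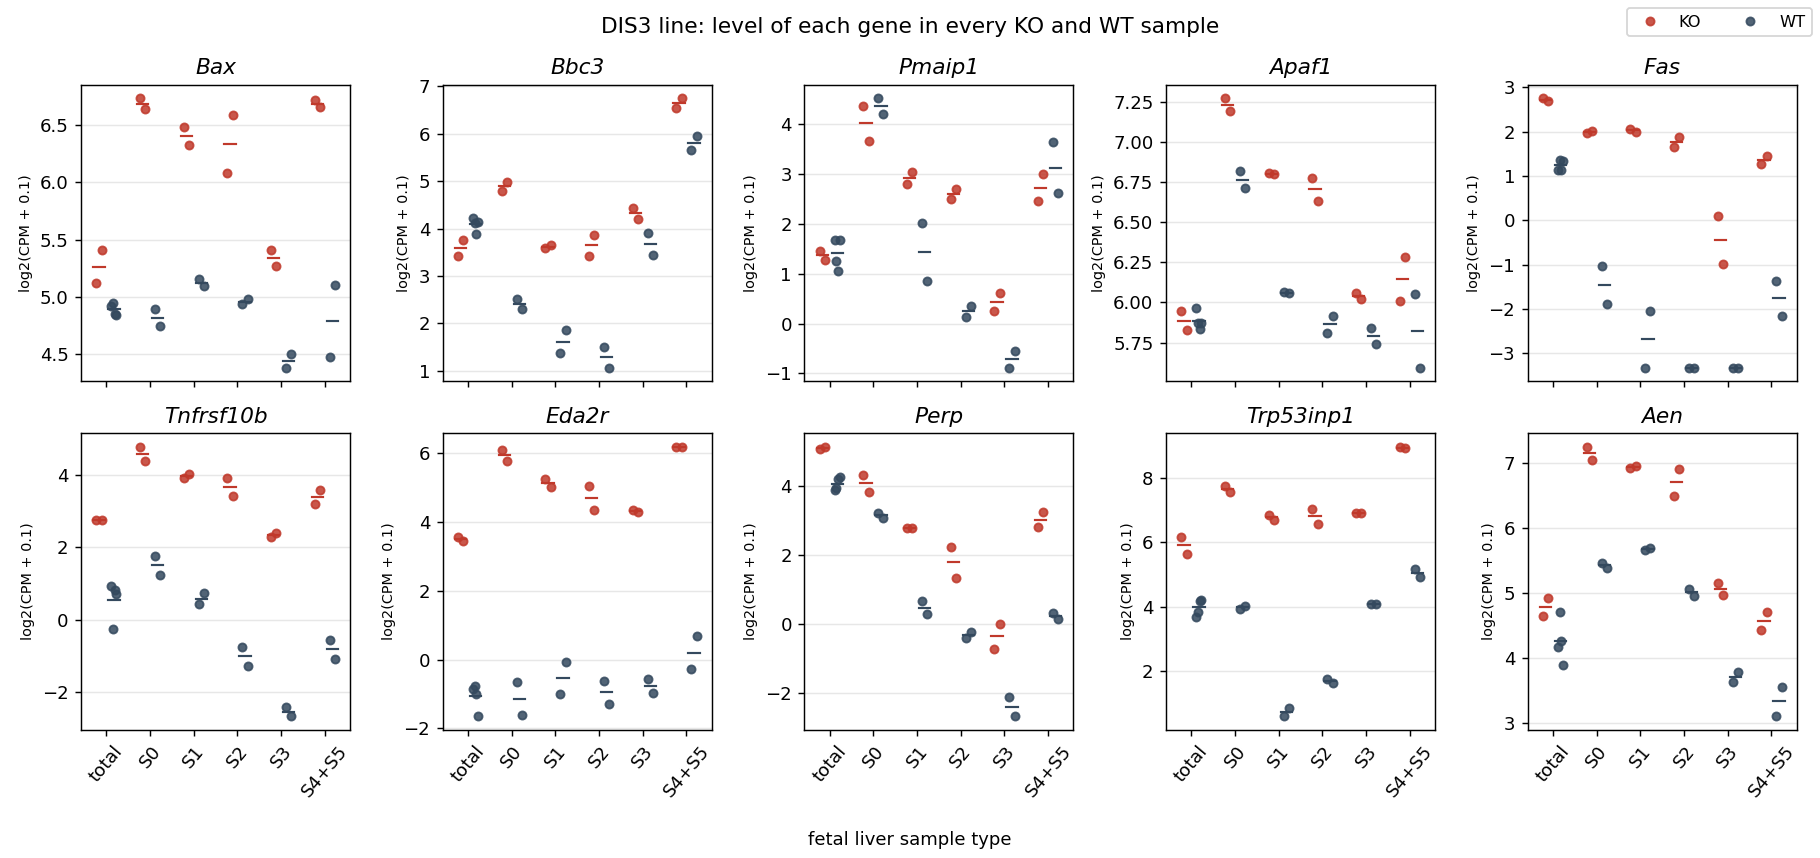
Level of each gene in the DIS3 line, as log2 of CPM plus 0.1, per sample (points) with the group mean (bars), by population, KO left of WT. Trp53inp1 reached 488 and 503 CPM in KO S4+S5 and 30.2 and 36.3 CPM in WT S4+S5, and Eda2r 72.1 and 72.2 CPM in KO and 0.725 and 1.5 CPM in WT.

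Trp53inp1, a stress protein that p53 induces and that takes part in autophagy and in p53's own phosphorylation, rose in every comparison. In S4+S5 it had 503 and 488 CPM in DIS3 KO samples, against 36.3 and 30.2 CPM in DIS3 WT samples (log2 fold change 3.89 ± 0.15, adjusted p = 4.33e-13). EXOSC10 S4+S5 had 225 and 239 CPM in KO samples, against 27.8 and 30.8 CPM in WT samples (log2 fold change 2.99 ± 0.11, adjusted p = 0.000293). The largest fold was in S1, where WT levels were lowest. S1 gave 116 and 105 CPM in DIS3 KO samples, against 1.41 and 1.70 CPM in DIS3 WT samples (log2 fold change 6.23 ± 0.13, adjusted p = 4.97e-11). EXOSC10 S1 gave 57.9 and 54.3 CPM in KO samples, against 0.784 and 1.38 CPM in WT samples (log2 fold change 5.52 ± 0.17, adjusted p = 2.1e-16). In S0 it had 216 and 188 CPM in DIS3 KO samples, against 15.3 and 16.3 CPM in DIS3 WT samples (log2 fold change 3.68 ± 0.12, adjusted p = 1.81e-08), and EXOSC10 S0 gave 3.59 ± 0.16. S2 gave 5.17 ± 0.22 in DIS3 and 4.69 ± 0.14 in EXOSC10, and S3 2.84 ± 0.08 and 2.02 ± 0.08. Total liver gave 1.96 ± 0.15 and 1.58 ± 0.08. All 12 were called and no groups overlapped.

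Perp, a membrane protein of desmosomes that p53 induces in dying cells, was called in 10 of its 11 tested comparisons. In EXOSC10 S3 it passed the count filter through its KO samples alone, and the call there is no independent support. Total liver had 33.1 and 34.7 CPM in DIS3 KO samples, against 14.4, 15.3, 18.1 and 18.9 CPM in DIS3 WT samples (log2 fold change 1.05 ± 0.12, adjusted p = 5.43e-06). EXOSC10 livers had 23.7, 22.3 and 30.0 CPM in KO samples, against 12.6, 13.8 and 14.2 CPM in WT samples (log2 fold change 0.89 ± 0.11, adjusted p = 1.66e-05). The groups were separate in both. S0 gave 19.7 and 14.1 CPM in DIS3 KO samples, against 9.25 and 8.25 CPM in DIS3 WT samples (log2 fold change 0.97 ± 0.21, adjusted p = 0.00466). EXOSC10 S0 gave 24.1 and 17.9 CPM in KO samples, against 4.81 and 4.37 CPM in WT samples (log2 fold change 2.20 ± 0.23, adjusted p = 0.000748). Both KO samples again stood above both WT samples in each line. S1 and S2 gave values between 1.24 and 2.67. S4+S5 gave 6.85 and 9.32 CPM in DIS3 KO samples, against 1.16 and 1.00 CPM in DIS3 WT samples (log2 fold change 2.85 ± 0.43, adjusted p = 2.28e-05). EXOSC10 S4+S5 gave 3.51 and 6.55 CPM in KO samples, against 2.19 and 1.91 CPM in WT samples (log2 fold change 1.32 ± 0.45, adjusted p = 0.107), which was called without KO replicate 1 (1.64, adjusted p = 4.02e-09). Perp was near the limit of detection in S3, with 0.505 and 0.913 CPM in DIS3 KO and 0.132 and 0.0583 CPM in WT, untested, and 1.97 and 1.06 CPM in EXOSC10 KO samples, against 0.256 and 0.309 CPM in EXOSC10 WT samples (log2 fold change 2.31 ± 0.53, adjusted p = 0.00469).

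Aen, an apoptosis-enhancing nuclease, was called higher in all 12 comparisons. In S0 it had 151 and 132 CPM in DIS3 KO samples, against 44.0 and 41.6 CPM in DIS3 WT samples (log2 fold change 1.73 ± 0.11, adjusted p = 8.18e-07). EXOSC10 S0 had 86.5 and 80.5 CPM in KO samples, against 35.5 and 42.3 CPM in WT samples (log2 fold change 1.09 ± 0.12, adjusted p = 0.00112). Both KO samples stood above both WT samples in each line. S4+S5 gave 21.3 and 26.1 CPM in DIS3 KO samples, against 8.49 and 11.6 CPM in DIS3 WT samples (log2 fold change 1.24 ± 0.24, adjusted p = 0.000313). EXOSC10 S4+S5 gave 21.6 and 17.4 CPM in KO samples, against 5.31 and 5.70 CPM in WT samples (log2 fold change 1.81 ± 0.22, adjusted p = 0.00569). The groups did not overlap in any sorted population, with 0.80 to 1.70 in S1, S2 and S3. DIS3 total liver had 24.9 and 30.3 CPM in KO samples, against 17.9, 25.9, 19.1 and 14.7 CPM in WT samples (log2 fold change 0.49 ± 0.16, adjusted p = 0.0181), with 1 WT liver above the lower KO liver, and the call was lost without KO replicates 2-4 (0.34, adjusted p = 0.159) and against the WT liver without Y-linked counts alone (0.52, adjusted p = 0.0687). EXOSC10 total liver gave 0.56 ± 0.07.

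**Figure D3:**
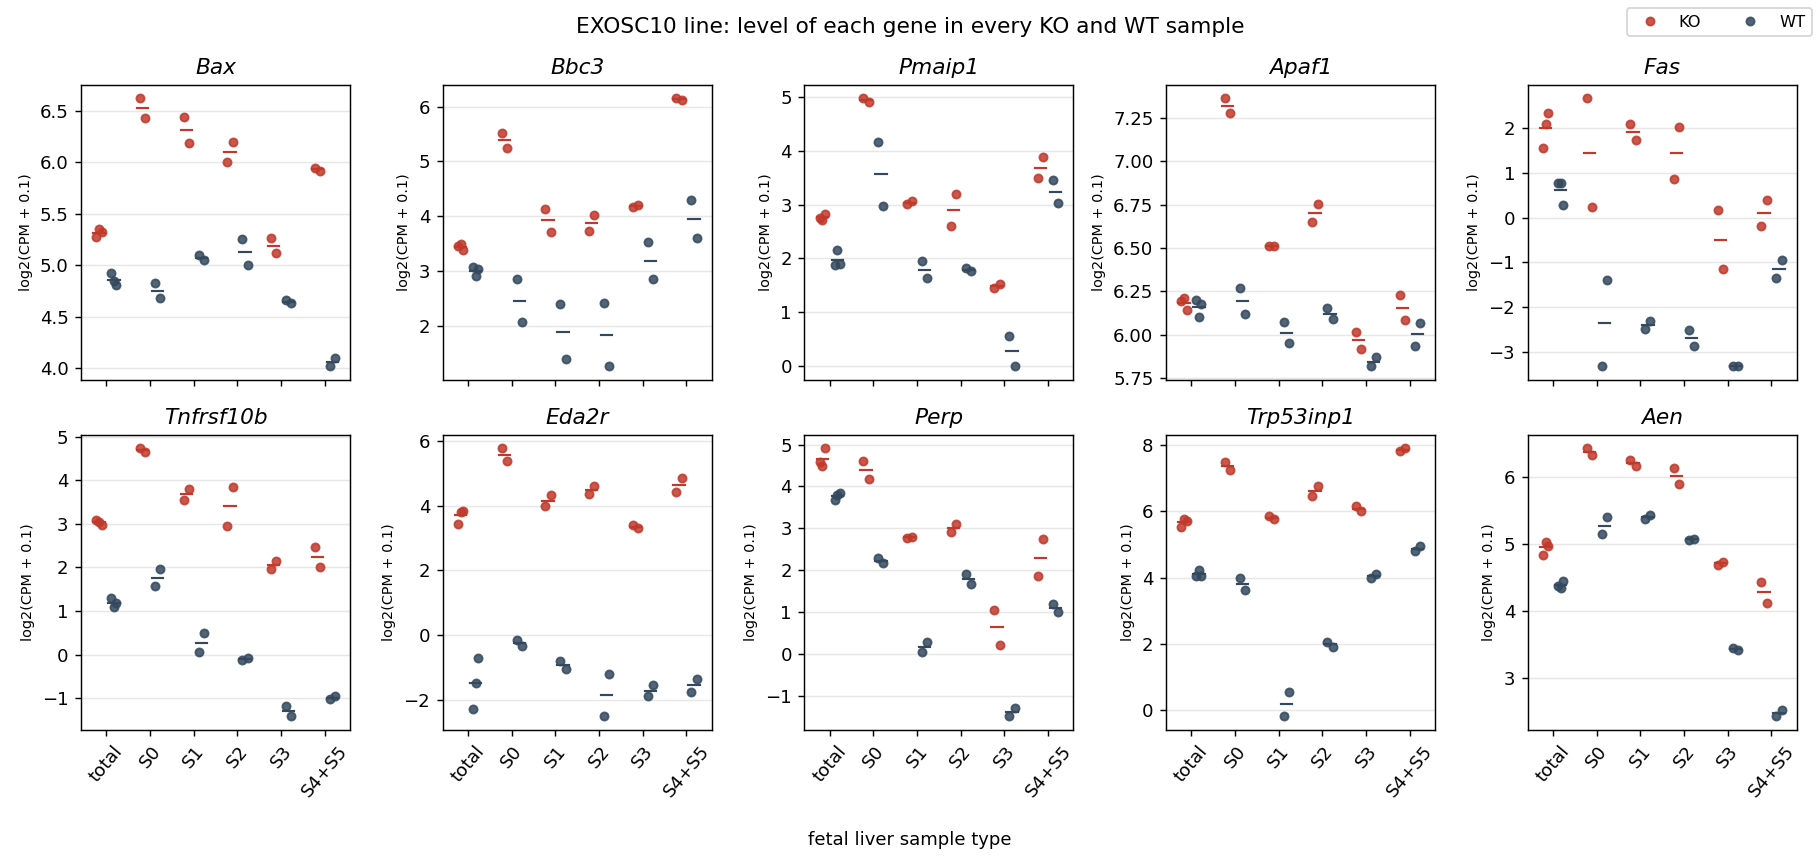
Level of each gene in the EXOSC10 line, as log2 of CPM plus 0.1, per sample (points) with the group mean (bars), by population, KO left of WT. Tnfrsf10b reached 25.1 and 26.5 CPM in KO S0, against 2.86 and 3.81 CPM in WT S0, and Bbc3 69.3 and 70.9 CPM in KO S4+S5, against 12.1 and 19.6 CPM in WT S4+S5.

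Whether a KO effect differed between the sorted populations was tested with an F test in each line. It differed for 8 of the 10 genes in the DIS3 line (34.5% of all genes tested) and for 6 in the EXOSC10 line (30% of all genes). Fas is among the 8, but its DIS3 WT samples held 1 count in S1 and 0 in S2 and S3. The Fas test thus rests on almost no WT counts. Tnfrsf10b and Perp are among the 8 too and had few WT counts. DIS3 WT samples held 19 and 5 Tnfrsf10b counts in S2 and 2 and 1 in S3. Perp had 3 and 1 in S3. Trp53inp1 had the clearest pattern. Its effect in S1 exceeded that in S0 by 2.47 ± 0.27 in DIS3 and by 1.90 ± 0.25 in EXOSC10, and its effect in S3 fell short of that in S0, with differences of -0.93 ± 0.20 and -1.64 ± 0.20 (F test, adjusted p = 2.11e-09 and 2.81e-08). Bbc3 had a smaller effect in S3 than in S0 in both lines, with differences of -1.95 ± 0.27 in DIS3 and -2.05 ± 0.47 in EXOSC10. In the DIS3 line its effect was also smaller in S4+S5 (-1.86 ± 0.26). Bax had a smaller effect in S3 as well, with differences of -1.05 ± 0.23 and -1.31 ± 0.16. The effect on Apaf1 in the EXOSC10 line was smaller in all later populations than in S0, with differences of -0.65 ± 0.12 in S1 and -1.24 ± 0.12 in S4+S5. Pmaip1 in the DIS3 line had its effect in S2 above that in S0 by 2.62 ± 0.47. Eda2r was not called in either line (adjusted p = 0.0881 in DIS3 and 0.426 in EXOSC10).

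Markers of other cell types moved in the same samples. The 10 B cell markers summed lower in KO than in WT in every comparison, for example to 32.1 to 34.6 CPM in DIS3 KO S0, against 216 to 265 CPM in WT. The 12 macrophage markers summed to 103 to 104 CPM in DIS3 KO S0, against 540 to 568 CPM in WT (10 of 12 detected in KO, 12 in WT). In EXOSC10 S0 they summed to 376 to 754 CPM in KO, against 130.3 to 217 CPM in WT. Of the 11 tested there, however, 1 was called higher and 1 lower, and their median log2 fold change was -0.66. That higher sum thus does not describe the typical macrophage marker. In S4+S5 the macrophage markers summed to 61.8 to 86.5 CPM in DIS3 KO, against 779 to 1167 CPM in WT. The 9 stem and progenitor markers summed lower in KO S1 in both lines. DIS3 KO samples had 308 to 318 CPM, against 600 to 612 CPM in WT. EXOSC10 KO samples had 298 to 301 CPM, against 525 to 548 CPM in WT. Of the 7 tested, 5 were called lower in each line, and 1 was called higher in EXOSC10. The granulocyte markers, 10 genes, summed to 559 to 717 CPM in DIS3 KO S0, against 3082 to 3533 CPM in WT, with 9 called lower, but to 1266 to 2326 CPM in EXOSC10 KO S0, against 788 to 1026 CPM in WT, with 5 called higher and 1 lower. In S1 all 10 were called lower in both lines. Of the 14 erythroid markers tested, 9 were called higher and 1 lower in DIS3 S0 (median log2 fold change 1.40), 6 higher and 2 lower in EXOSC10 S0 (1.21), 8 higher and 2 lower in DIS3 S1 (0.36) and 8 higher and 1 lower in EXOSC10 S1 (0.40). All 16 erythroid markers summed to 3482 to 3545 CPM in DIS3 KO S1, against 3222 to 3243 CPM in WT. In EXOSC10 S2 the 12 hepatocyte markers summed to 132 to 136 CPM in KO, against 13.8 to 16.4 CPM in WT. In DIS3 S1 they summed to 7.70 to 7.78 CPM in KO, against 5.95 to 7.55 CPM in WT. The part of these shifts in the members' changes was not tested.

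In WT cells the 10 genes followed different courses along S0, S1, S2, S3 and S4+S5. Of the 9 that could be tested (Fas was too low), 9 changed along the populations in the DIS3 line (88.7% of all genes) and 8 in the EXOSC10 line (86.4% of all genes). Trp53inp1, per kilobase of exon, had means of 1.82, 0.199, 0.477, 3.01 and 7.81 CPM over S0, S1, S2, S3 and S4+S5 in DIS3 WT and of 1.68, 0.148, 0.505, 3.04 and 7.91 CPM in EXOSC10 WT. It was lowest in S1 and then rose at each step. The step of S1 over S0 was -3.25 ± 0.19 in DIS3 and -3.31 ± 0.21 in EXOSC10, and that of S3 over S2 was 2.64 ± 0.16 and 2.61 ± 0.18. Bbc3 rose late, from S2 onward, with means of 1.83, 1.17, 1.09, 7.03 and 40.2 CPM per kilobase in DIS3 WT and 2.05, 1.59, 1.49, 5.17 and 13.1 CPM per kilobase in EXOSC10 WT. Its step of S4+S5 over S3 was 2.5 ± 0.17 and 1.37 ± 0.32.

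Step by step, each population was set against the one before it. The WT populations also differed in other cells. The 12 macrophage markers summed to 28.8 to 32.5 CPM in DIS3 WT S3 and to 779 to 1167 CPM in S4+S5. In EXOSC10 WT they summed to 42.3 to 47.2 CPM in S3 and to 823 to 912 CPM in S4+S5. The part of cell makeup in the steps was not tested. In DIS3 WT, S1 over S0 was called higher for 2 members (24.4% of all genes) and lower for 6 (31.7%), S2 over S1 higher for 1 (9.36%) and lower for 3 (10.1%), S3 over S2 higher for 2 (25.4%) and lower for 3 (27.2%), and S4+S5 over S3 higher for 8 (34.5%) and lower for 0 (30%). In EXOSC10 WT, S1 over S0 was higher for 2 (24.1%) and lower for 4 (28.3%), S2 over S1 higher for 2 (9.98%) and lower for 1 (7.87%), S3 over S2 higher for 3 (26.5%) and lower for 3 (26.1%), and S4+S5 over S3 higher for 5 (37.5%) and lower for 1 (19.8%). Pmaip1 had its highest means in S0 and S4+S5 in both lines, and Perp had its lowest mean in S3. Pmaip1 averaged 5.57, 0.861, 0.393, 0.217 and 5.10 CPM per kilobase along DIS3 WT and 3.66, 1.08, 1.04, 0.490 and 6.06 along EXOSC10 WT; its S1 over S0 step was -2.47 ± 0.31 and -1.70 ± 0.31 and its last step 4.62 ± 0.43 and 3.70 ± 0.37. Perp averaged 3.34, 0.554, 0.354, 0.0564 and 0.843 CPM per kilobase along DIS3 WT and 1.83, 0.466, 1.47, 0.173 and 1.84 along EXOSC10 WT. S2 over S1 was called for Perp in EXOSC10 (1.59 ± 0.28) and not in DIS3 (-0.76 ± 0.34); that difference was not tested. Aen was lower in S3 than in S2, by a log2 fold change of -1.09 ± 0.13 in DIS3 and -1.15 ± 0.12 in EXOSC10.

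The other levels varied less or were close to the floor. Bax held 13.3 to 27.1 CPM per kilobase along DIS3 WT and 13.3 to 18.8 along EXOSC10 WT, and Apaf1 6.11 to 9.65 and 6.27 to 12.4. Bax and Apaf1 were among the highest per kilobase in S1 and S2, with Aen between 1.66 and 7.26. Tnfrsf10b, Eda2r and Fas had means under 0.5 CPM per kilobase in every WT population, and 1 sample, Tnfrsf10b in EXOSC10 WT S0, lay above it at 0.542. Tnfrsf10b was highest in S0 (0.381 in DIS3, 0.475 in EXOSC10) and was lower in S1 (-0.91 ± 0.36 and -1.35 ± 0.32), calls that were lost without at least 1 sample in each line. The S1 over S0 calls of Bax, Bbc3 and Aen in DIS3 and of Aen in EXOSC10, all S2 over S1 calls of Aen, Pmaip1 and Tnfrsf10b, and Trp53inp1 of S2 over S1 in DIS3 were likewise lost without at least 1 WT sample. So were the later steps of Tnfrsf10b, Eda2r and Apaf1 in DIS3, and Pmaip1 and Apaf1 of S3 over S2 and Aen of S4+S5 over S3 in EXOSC10.

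**Figure D4:**
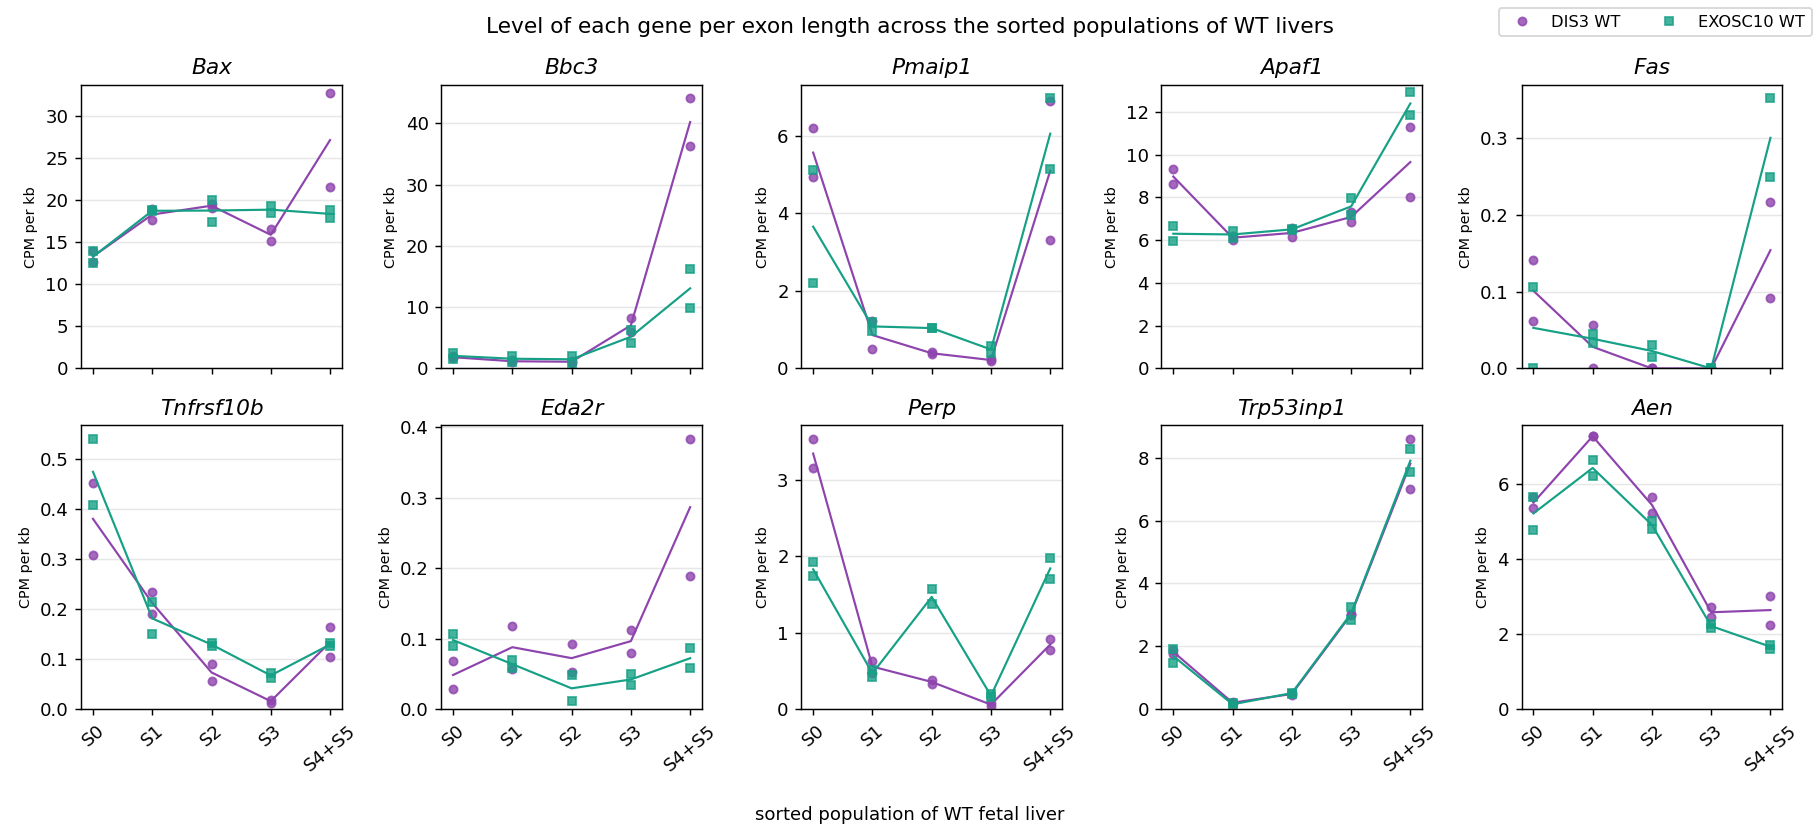
Level of each gene in WT samples along S0, S1, S2, S3 and S4+S5, as CPM per kilobase of exon on a linear axis. Points are samples, and lines join the means of the DIS3 and EXOSC10 WT groups. Trp53inp1 is lowest in S1 and highest in S4+S5 in both lines, while the means of the receptors stay under 0.5.

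The difference between the lines was tested in each population as the DIS3 effect minus the EXOSC10 effect. It was called in 9 of 60 tests, for 6 of the 10 genes, and the lack of a call elsewhere does not show that the lines were alike. The 60 include Fas in S3, whose WT samples held 0 counts in each line, so no difference could be read there. Perp in S3, too low for its own test in the DIS3 line, is included as well. In total liver Bbc3 differed (-0.94 ± 0.17, adjusted p = 0.00819; 0.441% of all genes had a lower and 0.578% a higher DIS3 effect). In S0 Pmaip1 (-1.63 ± 0.45, adjusted p = 0.0489), Perp (-1.24 ± 0.32, adjusted p = 0.0359) and Apaf1 (-0.67 ± 0.14, adjusted p = 0.0122) had lower DIS3 effects (3.92% of all genes), and Aen a higher one (0.63 ± 0.17, adjusted p = 0.0442; 3.33% of all genes). In S1 Aen had a higher DIS3 effect (0.49 ± 0.11, adjusted p = 0.0108; 3.2% of all genes, with 0.822% lower). No member differed in S2, where 1.8% of all genes had a higher and 0.413% a lower DIS3 effect. Trp53inp1 had a higher DIS3 effect in S3 (0.82 ± 0.11, adjusted p = 0.00103; 0.997% of all genes, with 0.414% lower) and in S4+S5 (0.93 ± 0.17, adjusted p = 0.00874; 3.51% of all genes), and Bbc3 a lower one in S4+S5 (-1.29 ± 0.28, adjusted p = 0.0193; 3.5% of all genes). The KO and WT levels behind the last are given above: Bbc3 in S4+S5 reached 107 CPM in DIS3 KO and 70.9 CPM in EXOSC10 KO, and WT levels were 50.2 to 62.2 CPM in DIS3 and 12.1 to 19.6 CPM in EXOSC10. Only the calls of Bbc3 in total liver and Trp53inp1 in S3 stood whichever sample was left out; each of the other 7 was lost without at least 1 sample.

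**Figure D5:**
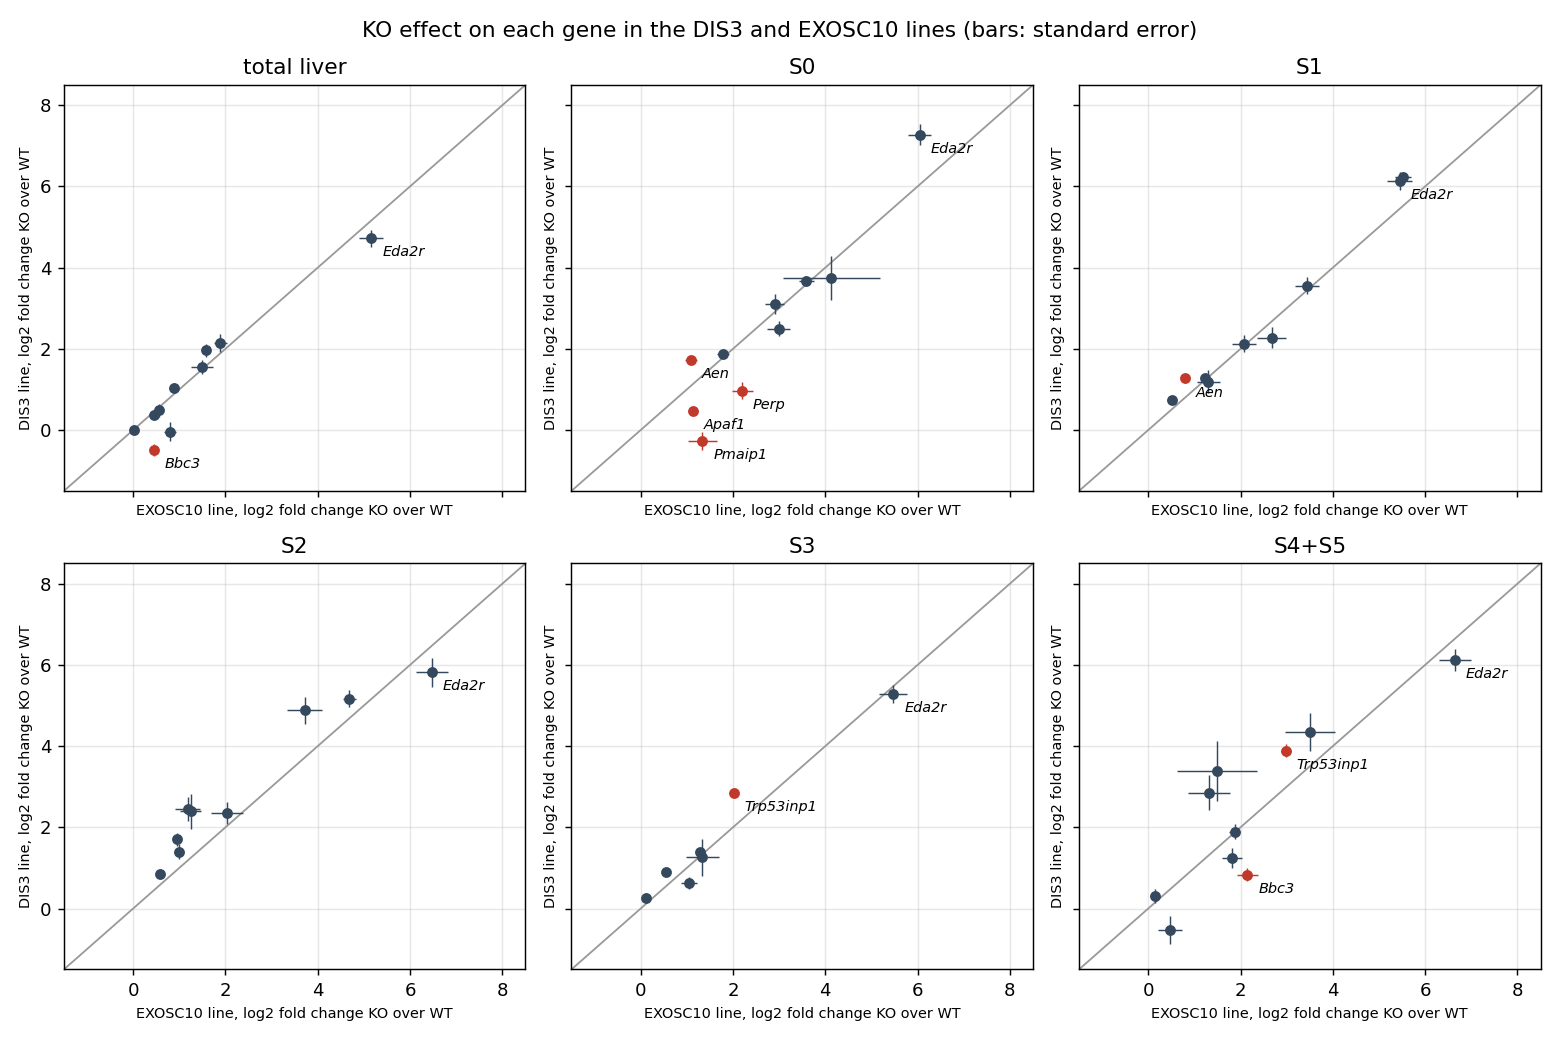
Log2 fold change, KO over WT, in the DIS3 line against that in the EXOSC10 line, 1 point per gene in each population, with the line of equal change. Red points differ between lines at an adjusted p under 0.05 (Bbc3 in total liver, at -0.50 in DIS3 and 0.45 in EXOSC10, among them). Fas in S1, S2 and S3 and Tnfrsf10b in S3, whose WT samples held few counts, are left out. Perp in S3, untested in the DIS3 line, is left out too.

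Trp53 RNA itself was called higher in S3 and S4+S5 only, of the 6 populations in each line. In S4+S5 the Trp53 transcript had 102 to 103 CPM in DIS3 KO samples, against 24 to 27.5 CPM in WT samples (log2 fold change 1.99 ± 0.16, adjusted p = 8.78e-09), and 58.1 to 76.2 CPM in EXOSC10 KO samples, against 20.2 to 22.3 CPM in WT samples (1.67 ± 0.17, adjusted p = 0.00364). In S3 the change was 0.79 in each line. In S0, where all the members but Pmaip1 of the DIS3 line rose, Trp53 had 86.3 to 98.2 CPM in DIS3 KO and 99.9 to 112 CPM in WT, and 76.0 to 89.9 CPM in EXOSC10 KO and 98.6 to 122 CPM in WT, not called in either.

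Other p53 targets, in a list of 34 genes with Trp53, were called higher more often than all genes in each of the 12 comparisons. This list and those below were chosen with earlier results of these data known, so their shares only describe these samples. Between 18 and 23 of the 29 to 32 tested were called higher in each sorted population, and 15 of 32 in DIS3 and 16 of 32 in EXOSC10 total liver. That is 56.2% to 74.2% in the sorted populations, against 7.63% to 23.4% of all genes, and 46.9% and 50% in DIS3 and EXOSC10 total liver, against 26.5% and 31.4% of all genes. The list's median log2 fold change lay between 0.63 and 1.53 in the sorted populations and was 0.18 in DIS3 and 0.24 in EXOSC10 total liver, with medians of all genes between -0.02 and 0.03. Called lower were 0 to 7 of its genes in the sorted populations (0% to 21.9%, against 4.63% to 23.7% of all genes). In total liver 7 were called lower in DIS3 and 8 in EXOSC10 (21.9% and 25%, against 24.2% and 31% of all genes). Cdkn1a, the cell cycle inhibitor p21, rose in all 12 comparisons, by log2 fold changes of 4.09 to 7.01. Mdm2, the ubiquitin ligase that limits p53, rose in all 12 by 0.64 to 3.47, as did Ccng1, Zmat3, Sesn2, Phlda3, Plk2, Polk, Ercc5, Cd80, Psrc1, Dcxr and Ephx1. The repair genes Ddb2 and Xpc were not called higher in any.

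Other lists of the death machinery were read beside all genes, of which 7.63% to 31.4% were higher and 4.63% to 31% lower over the 12 comparisons. Of 21 genes of the BCL2 family and the mitochondrial pathway (15 to 18 tested), 1 to 5 were called higher and 1 to 9 lower in each comparison, with medians of -0.19 to 0.16; the share called higher, 5.88% to 31.2%, was above that of all genes in 6 of 12 comparisons, and the share called lower, 5.88% to 50%, in 10. Bcl2l2, which encodes the survival protein BCL-W, was higher in 7 of 12, and Bcl2l11, which encodes the BH3-only protein BIM, was lower in 8 and higher in 1. Among 17 caspases and their regulators (16 or 17 tested), 0 to 3 were higher and 1 to 9 lower, with medians of -0.38 to -0.05; the share called higher, 0% to 18.8%, was above that of all genes in 0 of 12, and the share called lower, 5.88% to 52.9%, in 11. Casp9, the caspase of the apoptosome, was lower in 7 of 12 comparisons and Casp8, the caspase of the death receptors, in 5, and neither was higher in any. Pidd1, a p53-induced scaffold of caspase-2, was higher in 8. Among 19 genes of the death receptor pathway (11 to 17 tested), 1 to 5 were higher and 0 to 8 lower, with medians of -0.32 to 0.14; the share called higher, 5.88% to 38.5%, was above that of all genes in 6 of 12, and the share called lower, 0% to 50%, in 8. Eda, the ectodysplasin gene, was higher in 7 of 11 tested comparisons, Tnfrsf21 in 9, and Tnfrsf1b, a receptor of TNF, was lower in 9. Fasl was tested in 3 comparisons, where it was higher in 2, and Tnfsf10, which encodes TRAIL, in 4, where it was lower in 2.

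Across the 24 groups of line, genotype and population, the members were followed best by a few genes. The 5 most like the mean of the 10 members, centred per gene, were Cd80 (Pearson r = 0.983), Ddit4 (0.978), Trp53cor1 (0.953), Dcxr (0.953) and Prrg4 (0.951), among 10882 genes tested everywhere. Among the members, each set against the mean of the other 9, Tnfrsf10b (0.899), Eda2r (0.891) and Fas (0.842) were closest, Bax (0.815), Trp53inp1 (0.814) and Apaf1 (0.666) came next, and Bbc3 (0.579), Perp (0.573), Pmaip1 (0.549) and Aen (0.472) were least alike. The 24 points share lines, populations and libraries, so these values describe the samples only.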

How the data were processed

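Total RNA of mouse fetal livers was sequenced after removal of ribosomal RNA, per the labels' protocols. The authors deposited raw counts of reads per Ensembl gene, not normalised, 1 file per library. HISAT2 2.1.0, featureCounts 1.6.4 (Subread), R 3.5.1, DESeq2 1.20.0 and build GRCm38 were used, per the submitters' processing notes; the annotation release and the strand setting are not given in the sources used here, so reads of overlapping genes may be shared. Symbols and coordinates came from GENCODE M21, where 49326 of 49585 identifiers were found.

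Libraries of 1 group with a chi-square per degree of freedom under 1.5 over genes with at least 20 counts were summed: 24 of 84 pairs lay at 1.08 to 1.33, the others at 2.80 to 20.3. Names such as replicates 1-3 mean the sum of those libraries. Samples then held 4.66 M to 45.5 M counts. Groups came from the labels; no column was left unused. Each comparison was fitted on its own samples with edgeR 4.0.16 (R 4.3.3, limma 3.58.1; quasi-likelihood test, TMM scaling, filterByExpr at a minimum count of 10, no replicate block) with Benjamini-Hochberg adjustment over all genes tested; differences between lines, populations and WT steps used contrasts of the same model. The edgeR scripts were tested on simulated data. Alternatives were DESeq2 1.42.0 (size factors or its Wald test), no count filter, every library as its own sample, 1 fit per line, a replicate block, leaving out each sample, only WT samples without Y-linked counts, and leaving out Gm26917 and Gm42418. Intervals of count ratios are exact 95% intervals and, like the floor of 3 counts, cover counting error only. CPM per kilobase uses merged exon length. Figures were drawn with matplotlib 3.10.9. All 10 members are named, and from the other lists the called genes with the largest changes and Trp53; Ddb2, Xpc, caspases and BCL2 family genes were named after their values were seen. The members and lists were chosen with earlier results of these data known.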

Additional observations from a re-analysis of the deposited data

Results flagged for a closer look

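Differences between the lines or between populations drew attention for 23 results, all by a test of the difference itself. The DIS3 effect minus the EXOSC10 effect was -0.94 for Bbc3 in total liver, -1.63 for Pmaip1, -1.24 for Perp, -0.67 for Apaf1 and 0.63 for Aen in S0, 0.49 for Aen in S1, 0.82 for Trp53inp1 in S3, and -1.29 for Bbc3 and 0.93 for Trp53inp1 in S4+S5. The KO effect differed between the sorted populations of the DIS3 line for Bax (adjusted p = 0.00544, edgeR), Bbc3 (adjusted p = 1.66e-06), Pmaip1 (adjusted p = 9.28e-05), Fas (adjusted p = 0.0192), Tnfrsf10b (adjusted p = 0.00422), Perp (adjusted p = 0.0215), Trp53inp1 (adjusted p = 2.11e-09) and Apaf1 (adjusted p = 0.0125). In the EXOSC10 line it differed for Bax (adjusted p = 4.48e-05), Bbc3 (adjusted p = 0.0293), Perp (adjusted p = 0.0400), Trp53inp1 (adjusted p = 2.81e-08), Apaf1 (adjusted p = 5.39e-06) and Aen (adjusted p = 0.0227). The Fas result in the DIS3 line rests on WT samples with 1 count in S1 and 0 in S2 and S3. Those of Tnfrsf10b and Perp in that line include S3 WT samples with 2 and 1 and with 3 and 1 counts. No explanation of these differences was tested.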

How the results depend on the processing

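Of the 117 KO against WT results of single members, 117 kept their direction and side of the threshold without Gm26917 and Gm42418, 116 with DESeq2 size factors, 116 with no count filter, 114 with the DESeq2 test, 111 in 1 fit per line, 111 of 116 with every library as its own sample, and 485 of 508 when single samples were left out. With only WT samples without Y-linked counts, possible in DIS3 total liver alone, 6 of 10 did, and 0 members were lower there; 0 were also lower in 1 fit per line. With every library as its own sample, 1 member was lower in DIS3 S4+S5, the difference between lines was lower for 2 in total liver, higher for 3 in S1, for 3 in S2 and for 2 in S3, and higher for 2 and lower for 2 in S4+S5, and 2 members fell in the EXOSC10 WT step of S4+S5 over S3. With no count filter, 1 member had a higher DIS3 effect in S2, and 1 rose in the EXOSC10 WT step of S1 over S0. The cause was not tested.

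Values not past the threshold changed sign. Apaf1 in DIS3 total liver was -0.0076 with DESeq2 size factors, -0.00055 with every library as its own sample, -0.0072 with the DESeq2 test and between -0.074 and 0.060 with single samples left out. Pmaip1 in DIS3 total liver was 0.12 in 1 fit per line, 0.31 against the WT sample without Y-linked counts and between -0.17 and 0.12 with single samples left out. Pmaip1 in DIS3 S4+S5 lay between -0.95 and 0.073, and Apaf1 in EXOSC10 total liver between -0.015 and 0.046. Apaf1 in EXOSC10 S4+S5 was -0.036 in 1 fit per line.

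With single samples left out, 0 to 1 members were lower in DIS3 total liver, 0 to 1 in S0 and 0 to 1 in S4+S5. Between lines, 0 to 1 were higher and 0 to 3 lower in S0, 0 to 1 higher in S1, 0 to 3 higher in S2, and 0 to 2 higher and 0 to 1 lower in S4+S5. In WT steps, 0 to 2 were higher in DIS3 S1 over S0, 0 to 1 higher and 0 to 3 lower in DIS3 S2 over S1, 1 to 2 higher in EXOSC10 S1 over S0, 0 to 1 lower in EXOSC10 S2 over S1 and 0 to 2 lower in EXOSC10 S4+S5 over S3. A comparison with 1 sample left in a group assumes that it varies like the others.

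Same-numbered KO and WT samples did not deviate together (correlations of -0.113 to 0.069 over pairs of samples), so the numbers were not taken as pairs. With a replicate block, 97 of 97 KO against WT results kept their call, and 0 members had a higher DIS3 effect in S0 (Aen 0.61, adjusted p = 0.104). No block was fitted in total liver, whose summed samples share too few numbers. Crossed pairing in DIS3 S1 and EXOSC10 S0, tried after the data were seen, gave 10 higher and 0 lower in each. Low counts limit Fas, Perp in S3 and the WT levels of the receptors.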

Other observations

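Prrg4 and Ddit4 followed the 10 genes as closely as listed p53 targets such as Dcxr did, although neither was in a list. Reln, which encodes the secreted protein reelin and stood in the list of stellate cell markers, was called higher in 11 of 12 comparisons, all but DIS3 S0. In S3 Reln averaged 492 ± 33.4 CPM in DIS3 KO samples, against 75.9 ± 11.3 CPM in WT samples (SD, 2 samples each; log2 fold change 2.69, edgeR adjusted p = 2.66e-09), and 537 ± 3.60 CPM in EXOSC10 KO samples, against 92.1 ± 1.49 CPM in WT samples (2.54, adjusted p = 6.09e-12). Col1a2 was the other gene of that list called higher there, and Dcn, Pdgfra, Pdgfrb and Lum averaged under 0.3 CPM in every S3 group.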
